A study of Mus musculus with 4 samples.

Results

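The 9 genes described here move glutamine and other amino acids into the cell or link glutamine, glutamate and aspartate to each other. They are the transporter genes Slc1a5, Slc7a5, Slc3a2, Slc38a1 and Slc38a2 and the enzyme genes Glul, Glud1, Got1 and Got2. They were chosen by symbol, and all 9 were found among the 34745 gene IDs of the count table. RNA was sequenced in 4 libraries of primary macrophages grown from the bone marrow of C57BL/6 mice. All 4 were transfected with a small interfering RNA (siRNA) and given lipopolysaccharide (LPS), the bacterial cell wall component that activates macrophages. In 2 libraries the siRNA was a control, and in 2 it was Acly-E14 siRNA, named after Acly, the gene of ATP citrate lyase. The labels do not say what E14 denotes. The labels give no genotype change, age, sex, siRNA dose or length of LPS exposure, and no group without LPS or without siRNA was analysed here. Nor do they say whether a group's replicates were separate mice or cultures, so the spread behind each p-value is that between libraries and may be technical.

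Glutamine enters cells mainly through sodium-coupled carriers and is converted to glutamate and then to 2-oxoglutarate, which feeds the citric acid cycle. Carbon from glutamine can thereby reach citrate, the substrate of ATP citrate lyase. Macrophages consume much glutamine when activated, and exchange some of it for essential amino acids through the CD98 transporter complex, which supplies leucine to the growth-controlling kinase complex mTORC1.

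The libraries held between 21023197 and 21837806 counts. Acly was at 158 and 154 CPM in the control libraries and at 118 and 127 CPM after Acly-E14 siRNA, 78.3% of the control level (log2 -0.35, SE 0.060, edgeR adjusted p = 0.00860). That call did not hold on leaving out control library 1 (adjusted p = 0.0583 by edgeR). CPM values are counts divided by library size, scaled with trimmed-mean (TMM) factors, and a gene was called when its edgeR adjusted p over all 13108 genes tested was under 0.05. By that rule 33.2% of all tested genes were called, 17.3% higher and 15.9% lower in the Acly-E14 siRNA libraries. The 4354 calls dropped to 2157 on leaving out control library 1, to 2864 on leaving out Acly-E14 siRNA library 1 and to 2088 on leaving out its replicate 2. Higher genes made up 52.0% of the calls with TMM factors and 65.8% with library totals alone. The 16 macrophage markers summed to 37539 and 34459 CPM in the control libraries and to 35559 and 36519 CPM in the others, and none was at 0. Of the 15 of them tested, 7 were called lower (Mrc1, Cebpa, Cd68, Lgals3, Csf1r, Spi1 and Mertk) and 3 higher (Cd14, Fcgr1 and Mpeg1), with a median log2 change of -0.19. The 15 fibroblast and stroma markers summed to 1119 and 1680 CPM in the control libraries and to 3572 and 4440 CPM after Acly-E14 siRNA. Of these 15 markers, 14 were called higher and none was at 0, among them Col1a1, the collagen I gene, at 184 and 295 against 834 and 1074 CPM. In bulk RNA more cells of a type and more RNA per cell cannot be told apart. Endothelial markers summed to 307 and 296 CPM in the control libraries and to 129 and 124 CPM in the others. Emcn and Cldn5 were at 0 in all 4 libraries. Only 4 of these 10 markers were tested, with Kdr and Cdh5 called lower and 2 not called. The log2 changes of those tested ran from -1.45 to 0.96, with a median of -0.21. B cell markers summed to 221 and 213 against 153 and 146 CPM. Of these 10 markers 4 were tested, with Blnk and Igkc called lower and 2 not called. Log2 changes of the tested B cell markers ran from -3.17 to 0.28. Erythroid markers summed to 4.02 and 4.40 against 0.046 and 0.37 CPM, with all 3 tested (Hbb-bs, Hba-a1 and Hba-a2) called lower. Neutrophil markers summed to 93.1 and 101 against 140.0 and 140.3 CPM, with Csf3r and S100a8 called higher and S100a9 lower. T and NK cell markers summed to at most 1.36 CPM in any library. The part of these markers in the results was not tested.

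Of the 9 genes, 3 transporter genes (Slc1a5, Slc7a5 and Slc3a2) were higher after Acly-E14 siRNA, 1 (Slc38a1) was lower, and 5 were not called. The called share, 44.4%, stands beside 33.2% of all genes tested. All 4 calls were of transporter genes. Of the 4 enzyme genes, edgeR with TMM factors called 0 (also 0 at an unadjusted p under 0.05) and DESeq2 called 0, whereas edgeR with library totals alone called Got2 and limma on log2(FPKM + 0.1) called Got2 and Glul. The limma fits were also scaled by library totals, without TMM factors. The difference between transporter and enzyme genes was not tested. The median log2 change of the 9 genes was 0.17, against 0.00268 over all tested genes. The groups of libraries did not overlap for 7 of the 9 genes, and they did not overlap for 70.6% of all tested genes.

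**Figure D1:**
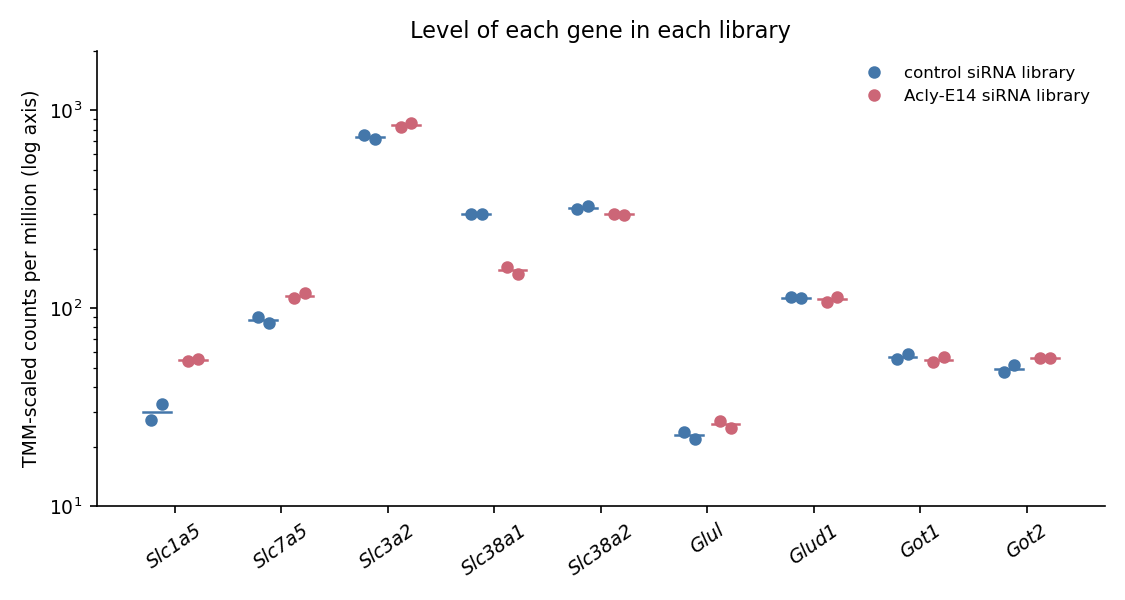
TMM-scaled CPM (log axis) of the 9 genes in each of the 4 libraries, with a bar at the mean of each group of 2. Slc1a5, Slc7a5 and Slc3a2 lie higher in both Acly-E14 siRNA libraries and Slc38a1 lies lower, while the points of Glud1 and Got1 overlap between the groups.

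Slc1a5 had the largest rise of the 9. It encodes ASCT2, a sodium-dependent exchanger of glutamine and other neutral amino acids, and lies at 16781340 to 16798274 of chromosome 7 (plus strand) (mm10). Its level was 27.4 and 32.8 CPM in the control libraries and 54.1 and 55.5 CPM after Acly-E14 siRNA, from 551 to 1216 counts. The control libraries differed from each other by more than the Acly-E14 siRNA libraries did, but both stayed well below them. The mean went from 30.1 ± 3.86 to 54.8 ± 0.997 CPM (SD, n = 2 each), a 1.82-fold rise (log2 0.86, SE 0.10, edgeR adjusted p = 0.00304). The 95% interval of the fold change ran from 1.53 to 2.17.

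Slc7a5 and Slc3a2 encode the light and heavy chains of LAT1-CD98, the exchanger that imports leucine and other large neutral amino acids, often in return for glutamine. Both rose, Slc7a5 by more. Slc7a5, at 121881150 to 121907694 of chromosome 8 (minus strand), was at 90.3 and 84.7 CPM in the control libraries and at 112 and 119 CPM after Acly-E14 siRNA. This is a 1.32-fold rise (95% interval 1.19 to 1.47, log2 0.40, SE 0.064, edgeR adjusted p = 0.00720). Slc3a2, at 8706882 to 8723369 of chromosome 19 (minus strand), was at 754 and 714 CPM against 820.0 and 865 CPM. The rise was 1.15-fold (95% interval 1.04 to 1.27, log2 0.20, SE 0.059, edgeR adjusted p = 0.0478). The groups did not overlap for either gene, but Slc3a2 was no longer called with any 1 library left out (edgeR adjusted p from 0.0766 to 0.205) or with low counts left unfiltered (0.0775). The Slc7a5 call held without each library in turn (edgeR adjusted p between 0.0212 and 0.0454).

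The CD98 heavy chain also pairs with other light chains, which were in the list of other transporters. Slc7a11, the light chain of the exchanger that imports cystine and exports glutamate, was at 182 and 172 CPM in the control libraries and at 219 and 216 CPM after Acly-E14 siRNA (1.23-fold, edgeR adjusted p = 0.0123). That call did not hold on leaving out control library 2 (adjusted p = 0.0702 by edgeR), Acly-E14 siRNA library 1 (0.0517) or its replicate 2 (0.0510). Slc7a6, the light chain of a carrier that exchanges cationic for neutral amino acids and glutamine, was at 8.84 and 10.9 against 18.3 and 18.6 CPM (1.86-fold, edgeR adjusted p = 0.00546). Slc7a8, which encodes LAT2, was the most counted of these light chain genes, at 416 and 412 against 383 and 379 CPM. It was not called by edgeR (log2 -0.12, adjusted p = 0.112), whereas the DESeq2 Wald test put it lower (adjusted p = 0.0249). Slc7a7, named after its values were seen, had a log2 change of 0.30 and was not called (edgeR adjusted p = 0.0865).

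Slc38a1 was the called member that fell. It encodes SNAT1, a sodium-coupled carrier that loads glutamine into the cell against its gradient, and lies at 96571418 to 96642913 of chromosome 15 (minus strand). Its level was 300.0 and 300.7 CPM in the control libraries and 162 and 150 CPM after Acly-E14 siRNA, from 3274 to 6429 counts. The control libraries were almost equal, and both Acly-E14 siRNA libraries lay far below them. The level was 51.9% of the control level (log2 -0.95, SE 0.060, 95% interval -1.10 to -0.80, edgeR adjusted p = 0.000842). Without each library in turn the edgeR adjusted p stayed between 0.00321 and 0.0128.

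Its neighbour on chromosome 15, Slc38a2 (minus strand, 96687392 to 96699730), encodes SNAT2, a carrier of the same family that is known for its induction when amino acids run short. Slc38a2 was at 317 and 328 CPM in the control libraries and at 301 and 297 CPM after Acly-E14 siRNA. Both Acly-E14 siRNA libraries were lower, by a small margin. The gene was not called (log2 -0.11, SE 0.051, 95% interval -0.23 to 0.017, edgeR adjusted p = 0.156).

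Glul encodes glutamine synthetase, which makes glutamine from glutamate and ammonia, and lies at 153899944 to 153909723 of chromosome 1 (plus strand). It was at 23.6 and 22.0 CPM in the control libraries and at 26.9 and 24.9 CPM after Acly-E14 siRNA. The groups did not overlap, but the log2 change of 0.19 (SE 0.093, 95% interval -0.042 to 0.41) did not pass (edgeR adjusted p = 0.174). Limma on log2(FPKM + 0.1) put Glul just past the threshold (adjusted p = 0.0488). Glul shares 116 exon bases with Teddm2, which had 4 counts over the 4 libraries.

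Glud1 encodes glutamate dehydrogenase, which turns glutamate into 2-oxoglutarate in mitochondria, and lies at 34310727 to 34345265 of chromosome 14 (plus strand). It was at 114 and 113 CPM in the control libraries and at 108 and 115 CPM after Acly-E14 siRNA. The libraries of the groups overlapped, and the log2 change was -0.029 (95% interval -0.17 to 0.12, edgeR adjusted p = 0.736).

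Got1 and Got2 encode the cytosolic and the mitochondrial aspartate aminotransferase, which exchange amino groups between glutamate and aspartate and take part in the malate-aspartate shuttle. Got1, at 43499752 to 43524605 of chromosome 19 (minus strand), was at 55.4 and 58.6 CPM in the control libraries and at 53.5 and 56.6 CPM after Acly-E14 siRNA. The groups overlapped (log2 -0.050, 95% interval -0.22 to 0.12, edgeR adjusted p = 0.616). Got2, at 95864134 to 95888547 of chromosome 8 (minus strand), was at 47.4 and 51.7 CPM against 55.96 and 56.0 CPM. Both Acly-E14 siRNA libraries were higher, but the log2 change of 0.17 (SE 0.072, 95% interval -0.0018 to 0.35) did not pass (edgeR adjusted p = 0.113). Got2 was past the threshold with library totals alone (edgeR adjusted p = 0.0456) and with limma on log2(FPKM + 1) (0.0420) or log2(FPKM + 0.1) (0.0422). Reads of Got2 may be split with its pseudogene Got2-ps1, which held 301 and 366 counts in the control libraries and 377 and 430 counts in the others, so the Got2 level is uncertain. Got2 also shares 434 exon bases with Gm45760 on the opposite strand.

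**Figure D2:**
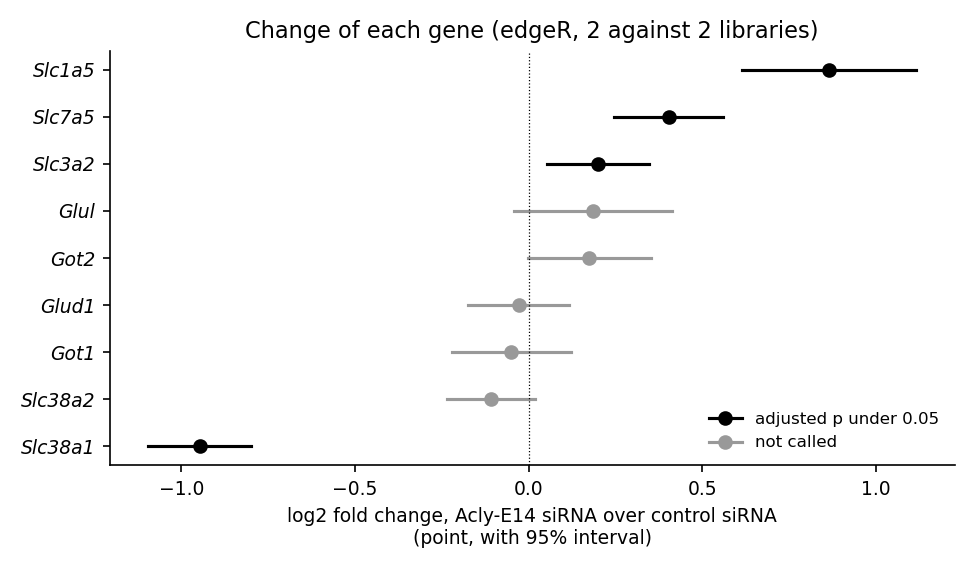
Log2 fold change of the 9 genes, Acly-E14 siRNA over control siRNA, from edgeR with 2 libraries against 2. Points are estimates, lines are 95% intervals, and black marks the 4 genes with an adjusted p under 0.05. Slc1a5 (0.86) and Slc38a1 (-0.95) lie farthest from 0 in opposite directions, and the intervals of the 5 genes in grey include 0.

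Beside levels per library, levels were compared between genes per gene length, as TMM-scaled FPKM (CPM divided by the gene length in kilobases). In the control libraries the order was Slc3a2 with a mean of 110.5 FPKM, Slc38a2 with 69.7, Slc38a1 with 35.8, Glud1 with 24.9, Slc7a5 with 20.3, Got2 with 17.2, Got1 with 14.9, Glul with 6.15 and Slc1a5 with 4.36 FPKM. No neighbours in this order overlapped over the 2 libraries. The control mean of Slc3a2 was above that of 96.9% of the genes tested, and the mean of Slc1a5 above 58.8%. In the Acly-E14 siRNA libraries Slc7a5 ranked 3 of 9 with 26.8 FPKM, Slc38a1 ranked 6 with 18.6 FPKM, and Slc1a5 (7.94 FPKM) stood above Glul (6.99 FPKM). The order rests on the gene lengths behind the deposited FPKM, which differ from the merged exon lengths of the GENCODE M21 annotation. Slc38a1 had 8391 bases in the table and 17236 bases of merged exons, and with the latter it ranked 6 in the control libraries and 8 in the Acly-E14 siRNA libraries. With merged exons Slc1a5 stood above Glul in the control libraries too (7.21 against 6.86 FPKM), and Got1 above Got2 in both groups. Slc3a2 and Slc38a2 kept ranks 1 and 2 in both groups with either length.

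Ratios within a library do not depend on its scaling, so 5 pairs of genes were compared in this way. The FPKM ratio of Slc38a1 to Slc38a2 was 0.522 and 0.505 in the control libraries and 0.297 and 0.277 in the Acly-E14 siRNA libraries. The log2 ratio fell by 0.84 in the mean, with no overlap of the groups. The ratio of Slc7a5 to Slc3a2 was 0.185 and 0.183 in the control libraries and 0.211 and 0.212 in the Acly-E14 siRNA libraries, so the light chain transcript gained on the heavy chain transcript (log2 difference 0.20). The ratio of Got1 to Got2 was 0.879 and 0.853 against 0.719 and 0.761 (log2 difference -0.23), with the pseudogene limit given for Got2.

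The ratio of Slc1a5 to Slc7a5 was 0.189 and 0.242 in the control libraries and 0.300 and 0.292 in the Acly-E14 siRNA libraries (log2 difference 0.47, and 0.29 without control library 1). The ratio of Glul to Glud1 was 0.255 and 0.239 against 0.308 and 0.268 (log2 difference 0.22, and 0.12 without Acly-E14 siRNA library 1). The groups did not overlap for any of the 5 ratios. An exact two-sided permutation test of 2 libraries against 2 cannot give a p below 0.33, and it gave 0.33 for each ratio (0.33 after Benjamini-Hochberg adjustment over the 5).

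**Figure D3:**
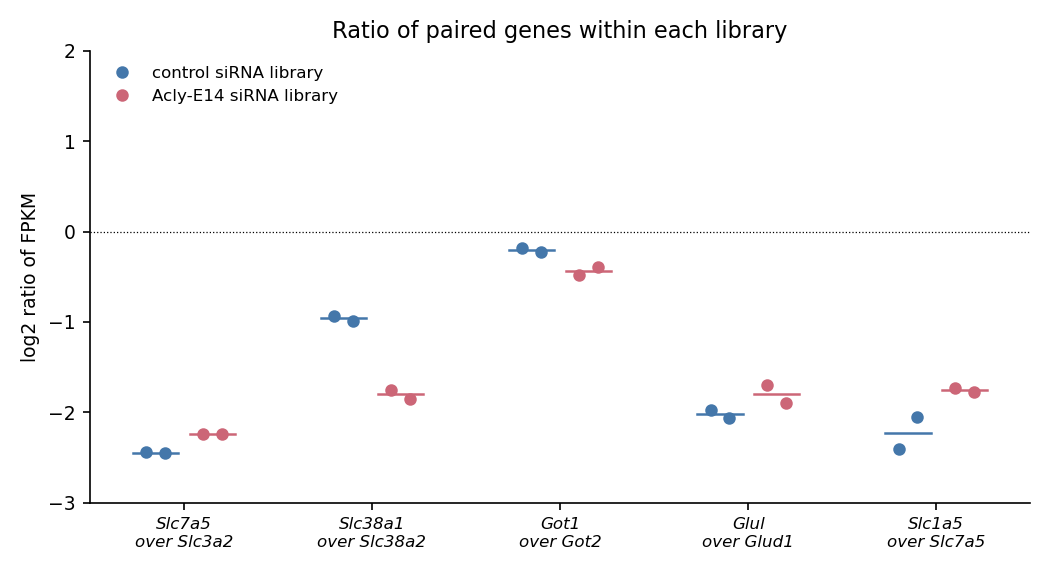
Log2 ratio of FPKM for 5 pairs of genes in each library, with a bar at the mean of each group of 2. The ratio of Slc38a1 to Slc38a2 is lower in both Acly-E14 siRNA libraries, and that of Slc7a5 to Slc3a2 is higher, with little spread within the groups.

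Among the other genes that use or make glutamine and glutamate, 8 of 32 rose, 3 fell and 21 were not called. The called share was 34.4%, against 33.2% of all tested genes, and the median log2 change was 0.15. Leaving out control library 1 gave 5 higher and 1 lower, leaving out control library 2 gave 0 lower, and leaving out Acly-E14 siRNA library 2 gave 4 higher and 0 lower. Ctps, which encodes a CTP synthase that takes nitrogen from glutamine, was at 16.6 and 22.8 CPM in the control libraries and at 48.3 and 60.2 CPM after Acly-E14 siRNA (2.75-fold, edgeR adjusted p = 0.00327). Gfpt2, an enzyme gene of the hexosamine pathway, was at 34.1 and 44.4 against 84.4 and 93.9 CPM (2.27-fold, edgeR adjusted p = 0.00271). Cad, whose product starts pyrimidine synthesis from glutamine, rose 1.96-fold, and Bcat1, a branched-chain aminotransferase gene, rose 2.78-fold.

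Gls2, the liver-type glutaminase gene, rose from a mean of 0.488 to 2.67 CPM, with at most 69 counts in a library, and its call was lost without Acly-E14 siRNA library 2 (edgeR adjusted p = 0.0638). Asns, which encodes asparagine synthetase, another consumer of glutamine, had 163 and 164 CPM against 138 and 125 CPM (log2 -0.31, edgeR adjusted p = 0.0177). The Asns call did not hold on leaving out control library 1 (adjusted p = 0.0839 by edgeR), control library 2 (0.0753) or replicate 2 of Acly-E14 siRNA (0.0839).

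Of 39 other amino acid transporter genes, 33 were tested, with 6 higher, 7 lower and 20 not called, a called share of 39.4% (33.2% over all tested genes) and a median log2 change of -0.018. Leaving out control library 1 gave 3 higher and 3 lower, leaving out Acly-E14 siRNA library 1 gave 2 higher, and leaving out its replicate 2 gave 2 higher and 4 lower. Slc16a10, which encodes a carrier of aromatic amino acids, had the largest fall, from 88.7 and 86.0 CPM in the control libraries to 32.9 and 28.1 CPM (34.9% of the control level, edgeR adjusted p = 0.000842). Slc38a4, another gene of the sodium-coupled family of Slc38a1, was at 2.53 and 2.90 CPM against 7.73 and 7.58 CPM (2.81-fold, edgeR adjusted p = 0.00277). Slc1a4, the closest relative of Slc1a5, was not called and its groups overlapped (log2 -0.062, edgeR adjusted p = 0.767). Slc38a9, a lysosomal sensor of arginine, was not called either (log2 0.12, edgeR adjusted p = 0.534).

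The list held 6 tested carriers of the mitochondrial inner membrane, of which 4 were called lower. Over all genes tested 15.9% were called lower. Slc25a11, the malate and 2-oxoglutarate carrier gene (log2 0.19, edgeR adjusted p = 0.0820), and Slc25a15, an ornithine carrier gene (log2 0.19, edgeR adjusted p = 0.440), were not called. These 6 were grouped after their values were seen. Slc25a22, a glutamate carrier gene, was at 213 and 200.5 CPM in the control libraries and at 161 and 149 CPM after Acly-E14 siRNA (log2 -0.41, edgeR adjusted p = 0.00697, and 0.0513 without control library 1). Slc25a44, a carrier gene for branched-chain amino acids, had 75.7 and 86.2 against 56.9 and 57.8 CPM (log2 -0.50, edgeR adjusted p = 0.00742). The aspartate-glutamate carriers of the malate-aspartate shuttle, in which Got1 and Got2 also act, are encoded by Slc25a12 and Slc25a13. Slc25a13 was at 24.1 and 22.1 against 15.7 and 16.3 CPM (log2 -0.53, edgeR adjusted p = 0.0105, and 0.0599 without control library 1). Slc25a12 was at 85.8 and 88.4 against 75.5 and 70.5 CPM (log2 -0.25, edgeR adjusted p = 0.0280). Slc25a12 was no longer called with any 1 library left out (edgeR adjusted p from 0.0551 to 0.161), with low counts left unfiltered (0.0524), with scaling by library totals (0.0958), and with limma on log2(FPKM + 1) (0.135) or log2(FPKM + 0.1) (0.134).

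**Figure D4:**
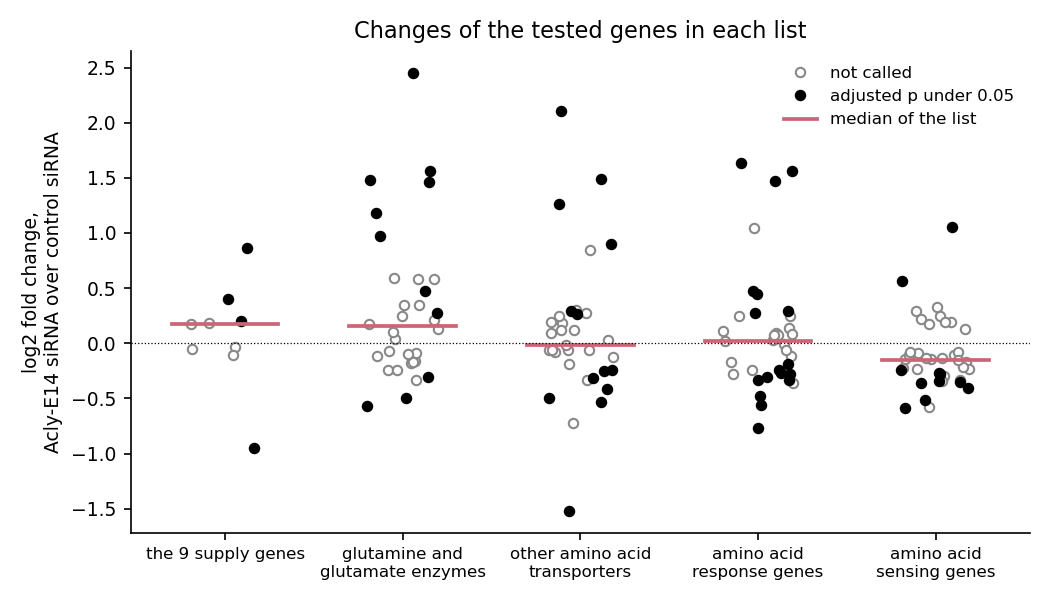
Log2 fold change, Acly-E14 siRNA over control siRNA, of the tested genes in 5 lists, with filled points for an adjusted p under 0.05, open points for genes not called, and a red bar at each list's median. The medians lie between -0.15 (amino acid sensing genes) and 0.17 (the 9 supply genes), and each list holds calls in both directions.

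When amino acids run short, cells raise the transcription factor ATF4, which switches on transporters such as Slc38a2, Slc7a5 and Slc3a2 together with synthesis enzymes and tRNA synthetases. Of 35 tested genes of this response, 7 were higher, 10 lower and 18 not called, a called share of 48.6% (33.2% over all tested genes) and a median log2 change of 0.022. Leaving out control library 1 gave 4 higher and 3 lower, leaving out control library 2 gave 5 lower, leaving out Acly-E14 siRNA library 1 gave 4 higher, and leaving out its replicate 2 gave 4 higher and 3 lower. Of the 36 genes listed, 8 also stood in one of the other 3 lists. Atf4 itself was at 544 and 508 CPM in the control libraries and at 432 and 438 CPM after Acly-E14 siRNA (log2 -0.27, edgeR adjusted p = 0.0162). The Atf4 call did not hold on leaving out control library 1 (adjusted p = 0.0971 by edgeR), Acly-E14 siRNA library 1 (0.0703) or its replicate 2 (0.0643). Aars, the alanyl-tRNA synthetase gene, dropped from 541 and 519 to 321 and 302 CPM (58.8% of the control level, edgeR adjusted p = 0.00111), and Trib3, a pseudokinase gene of the stress response, was at 67.8% of the control level (edgeR adjusted p = 0.00472). In the other direction, Ddit4, whose product restrains mTORC1, rose 2.77-fold from 6.66 and 7.16 to 17.7 and 20.6 CPM, Stc2 rose 3.10-fold, and Shmt2, a mitochondrial serine enzyme gene, rose 1.37-fold.

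Genes of amino acid sensing upstream of mTORC1 and of the kinases of translation factor eIF2 gave 2 higher, 9 lower and 27 not called of 38 tested, a called share of 28.9% and a median log2 change of -0.15. Over all tested genes 33.2% were called, 17.3% higher and 15.9% lower. The higher count was 1 with any 1 library left out, and the lower count was 3 on leaving out control library 1 and 4 on leaving out Acly-E14 siRNA library 2. Fnip1 and Fnip2, which encode partners of folliculin, were at 66.7% and 70.0% of the control level (edgeR adjusted p = 0.00258 and 0.00245). Seh1l, a subunit gene of the GATOR2 complex, was at 75.7%, and Rheb, the direct activator of mTORC1, at 78.7%. The Rheb call did not hold on leaving out control library 1 (adjusted p = 0.0605 by edgeR) or Acly-E14 siRNA library 1 (0.0565). Akt1s1, which encodes an inhibitory partner of the complex, rose from 15.3 and 12.3 to 24.6 and 32.6 CPM (2.07-fold, edgeR adjusted p = 0.00828). Mtor was not called (log2 -0.11, edgeR adjusted p = 0.252). With library totals alone, 6 genes of this list were higher in place of 2. Myc, a transcription factor gene known to raise Slc1a5 and Slc7a5 in dividing cells, was at 11.4 and 12.9 CPM in the control libraries and at 22.7 and 27.6 CPM after Acly-E14 siRNA (2.07-fold, edgeR adjusted p = 0.00364). Myc is not in the sensing list but in a separate list of regulators and related genes. Of 10 tested genes of that list, 2 were higher and 5 lower, a called share of 70.0% (33.2% over all tested genes). The 5 lower genes include Acly itself and Atf4, which is also counted among the response genes. Any part of Myc in the changes of Slc1a5 and Slc7a5 was not tested. As given above, the stromal marker genes were also higher after Acly-E14 siRNA, and their part in these list counts was not tested.

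Promoter windows (250 bases before to 50 after the gene's start, RefSeq, GRCm38.p6) were given for 6 of the 9 genes, which are Glul, Glud1, Got1, Got2, Slc38a2 and Slc3a2. They were searched on both strands for the C/EBP-ATF response element TGATGNAAN, to which ATF4 dimers bind, the E-box CACGTG, to which Myc binds, the AP-1 motif TGANTCA and the antioxidant element TGACNNNGC. The letters of these motifs may overlap, and a match is not a site of binding. The C/EBP-ATF element was in 1 of the 6 windows, that of Got1, and in 3.95% of all 32851 windows of this length. The antioxidant element was in 1 of the 6, that of Slc38a2, and in 12.4% of all windows. The E-box (7.15% of all windows) and the AP-1 motif (7.81%) were in none of the 6, which says only that these letters are not in these windows.

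Shown here are the window with the C/EBP-ATF match (Got1, chr19:43524556-43524855, minus strand, the match in capitals and on the reverse strand, from base 148 of the window) and that of the called gene with a window (Slc3a2, chr19:8713848-8714147, minus strand, no match, and inside the span of the gene given above), each 5′ to 3′ along its gene.
Got1: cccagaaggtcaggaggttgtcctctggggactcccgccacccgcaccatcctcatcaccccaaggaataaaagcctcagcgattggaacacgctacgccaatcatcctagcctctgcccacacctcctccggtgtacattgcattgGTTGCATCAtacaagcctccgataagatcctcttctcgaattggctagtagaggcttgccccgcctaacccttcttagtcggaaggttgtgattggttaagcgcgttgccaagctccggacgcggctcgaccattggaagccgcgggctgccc
Slc3a2: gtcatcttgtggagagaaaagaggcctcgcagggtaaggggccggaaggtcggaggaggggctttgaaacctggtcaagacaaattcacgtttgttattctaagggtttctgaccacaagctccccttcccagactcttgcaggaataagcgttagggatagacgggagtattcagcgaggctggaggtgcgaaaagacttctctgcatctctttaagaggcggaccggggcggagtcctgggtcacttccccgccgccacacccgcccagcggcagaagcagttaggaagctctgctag
Got1, with the element in its window, was not called, and Slc3a2, without any of the 4 motifs in its window, was higher, as given with their values above. No window was given for Slc1a5, Slc7a5 and Slc38a1, and any part of these motifs in the changes was not tested.

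**Figure D5:**
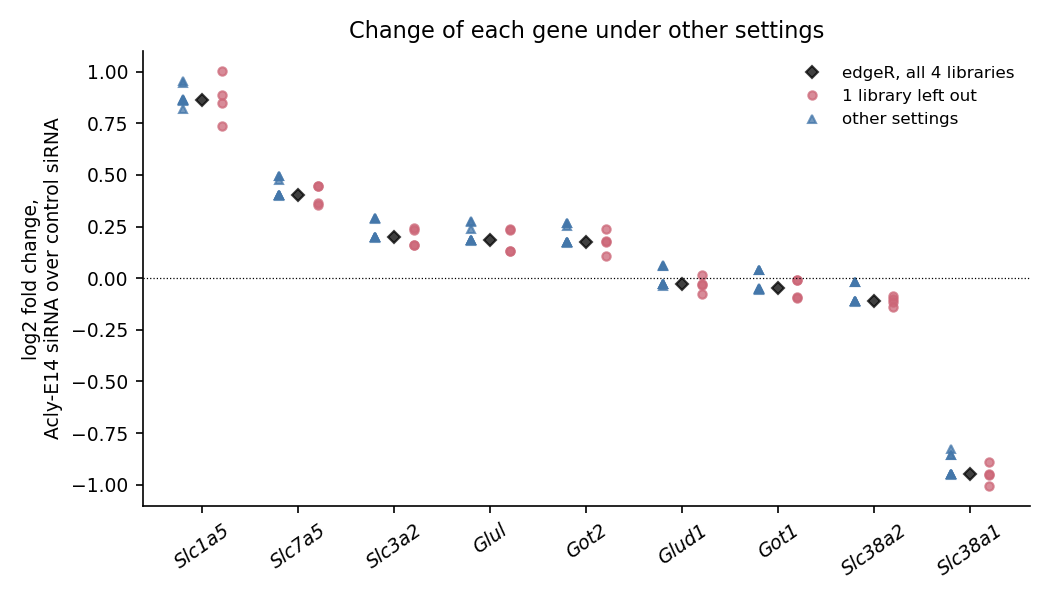
Log2 fold change of the 9 genes with edgeR on all 4 libraries (diamonds), with 1 library left out (circles) and under the other settings (triangles). Slc1a5, Slc7a5, Slc3a2, Glul and Got2 stay above 0 and Slc38a1 and Slc38a2 below 0 in every setting plotted, while Glud1 and Got1 have values on both sides.

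The calls of Slc1a5, Slc7a5 and Slc38a1 held in each of the settings plotted. With 1 library left out, the log2 change of Slc1a5 ran from 0.74 (no control library 1) to 1.0 (no control library 2). That of Slc38a1 ran from -1.0 (no Acly-E14 siRNA library 1) to -0.89 (no Acly-E14 siRNA library 2). That of Slc7a5 ran from 0.36 (no control library 2) to 0.45 (no control library 1).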

How the data were processed

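RNA counts from 2 control siRNA and 2 Acly-E14 siRNA libraries were analysed, grouped by sample title. The deposited table holds whole-number counts per Ensembl gene, not normalized per the file headers. It also holds FPKM values computed by the authors. Of 49103 deposited FPKM values above 0, 49103 equalled the FPKM recomputed from the count, the column total and a whole-number length (itself derived from those values) within a relative tolerance of 0.001. FPKM levels and ratios given here were recomputed that way with TMM factors. The FPKM that entered the limma fits were scaled by library totals, without TMM factors. A further 1 value column, whose name gives no replicate, was left unused. The submitters' processing notes name mm10, HISAT2, StringTie 1.3.0 and edgeR without their roles. Which program counted reads, with what strand setting and gene models, is not given in the sources used here. Between 0.153% and 0.187% of counts fell on IDs lacking a symbol. Positions are from GENCODE M21 on mm10.

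The test was that of edgeR 4.0.16 (R 4.3.3) on the counts (filterByExpr minimum count 10, TMM factors, quasi-likelihood F test, no covariates, Benjamini-Hochberg adjustment over 13108 genes, threshold 0.05). SEs and 95% intervals of log2 changes were derived from the F statistic. The test was also run on counts simulated from the means, dispersions and library sizes of its own fit, and that outcome is not given here. Alternatives were DESeq2 1.42.0, RLE factors, library totals, no filter, the replicate number as a block, limma 3.58.1 on log2(FPKM + 1) and log2(FPKM + 0.1), no mitochondrial genome, other thresholds and leaving out each library. Lists are described by counts only. Replicates differed by more than sampling noise (chi-square per degree of freedom 9.5 and 11).

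The 9 genes and the lists were chosen with earlier results of these data known. Named are the 9 genes, Acly, the 5 genes of smallest p in each of 4 lists, and fixed genes (Atf4, Asns, Slc7a11, Slc1a4, Slc7a6, Slc7a8, Slc38a9, Slc25a12, Slc25a13, Myc, Mtor, Col1a1 and Adgre1). A result that the rule would also name is not reported here. Adgre1, a macrophage marker, was at 227 and 206 CPM in the control libraries and at 190.2 and 189.6 CPM in the others and was not called by edgeR (adjusted p = 0.0721), though DESeq2 called it (0.0221).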

Additional observations from a re-analysis of the deposited data

How the results depend on the processing

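With 2 libraries a group, precision rests on a spread shared across genes. The 9 genes had at least 470 counts in each library, and the part of counting error in their SEs was not estimated. Among the 9, edgeR called 3 higher, or 2 with any 1 library left out, and 5 with limma on log2(FPKM + 0.1). Beyond 1 on the log2 scale the counts higher and lower were 0 and 0 for the 9 genes, 5 and 0 for the enzymes, 3 and 1 for the other transporters, 3 and 0 for the response genes and 1 and 0 for the sensing genes, and 1201 genes were called in all. Leaving out each library gave 4 to 7 enzymes higher and 0 to 2 lower, 2 to 4 transporters higher and 3 to 5 lower, 4 to 6 response genes higher and 3 to 8 lower, 1 sensing gene higher and 3 to 7 lower, and 2088 to 3215 calls in all. With either limma fit 1 enzyme was lower, and 6 sensing genes were higher and 5 lower. Library totals alone, or an adjusted p under 0.1, also gave 6 sensing genes higher. The fit with library totals alone and both limma fits were scaled without TMM factors. In each of these fits higher genes made up 65.8% of the calls, against 52.0% with TMM factors. The median log2 change over all tested genes was 0.094 with library totals, against 0.0027 with TMM factors. It was 0.051 with limma on log2(FPKM + 1) and 0.085 on log2(FPKM + 0.1). The TMM factors were 0.958 and 0.980 for the control libraries and 1.026 and 1.039 for the Acly-E14 siRNA libraries. With library totals alone the log2 change of each of the 9 genes was higher than with these factors. It went from 0.19 to 0.28 for Glul, from 0.17 to 0.27 for Got2 and from -0.029 to 0.063 for Glud1. Apart from this difference in scaling and the fewer samples when a library is left out, the cause of these shifts was not tested.

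Of the uncalled genes, Glud1 changed sign with library totals alone (log2 0.063), limma on log2(FPKM + 1) (0.059) and log2(FPKM + 0.1) (0.061), and with 1 library left out (-0.075 to 0.017). Got1 did so with library totals alone (0.041), log2(FPKM + 1) (0.039) and log2(FPKM + 0.1) (0.041). Slc1a4 did so with library totals alone (0.029), log2(FPKM + 1) (0.017) and log2(FPKM + 0.1) (0.029), and with 1 library left out (-0.16 to 0.038, with 0.0092 on leaving out Acly-E14 siRNA library 2). Slc38a9 did so with 1 library left out (-0.018 to 0.27). With a pseudocount of 1 the log2 ratio differed between the groups by 0.19 for Slc7a5 over Slc3a2.

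The replicate numbers are shared between the groups, but the labels do not say that they pair samples. Deviations of same-numbered libraries had a Pearson r of 0.144 across 13108 genes, with only 2 pairs. With the replicate number as a block, 3 of the 9 genes were higher and 1 lower, and 4896 genes were called in all.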

Other observations

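Genes of the same lists that the report does not name, chosen after their values were seen, included both ends of proline metabolism, a route from and to glutamate. Aldh18a1 and Pycr1, which make proline, rose 1.39-fold (edgeR adjusted p = 0.0212) and 2.96-fold (0.0125, from a mean of 0.957 CPM), and Aldh4a1, which breaks it down, had a log2 change of -0.57 (0.0320). Each of these 3 calls was lost in at least 1 fit without a library (highest edgeR adjusted p 0.102, 0.0664 and 0.153). Ctps2, the paralog of Ctps, went the other way, from 34.6 to 24.6 CPM in the mean (log2 -0.49, edgeR adjusted p = 0.0156, up to 0.0789 without a library).

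Slc36a1, a lysosomal amino acid carrier gene, was at 27.3 and 67.4 CPM in the control libraries and at 41.0 and 42.2 CPM after Acly-E14 siRNA, so the spread within the controls exceeded any difference between the groups (edgeR adjusted p = 0.735).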
